A study of Mus musculus with 16 samples.

Results

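The Cyp3a family of liver cytochromes P450 was followed in 16 mouse livers through its 8 listed members, Cyp3a11, Cyp3a13, Cyp3a16, Cyp3a25, Cyp3a41a, Cyp3a41b, Cyp3a44 and Cyp3a59, which were found by gene symbol among 15544 rows of the expression table. All mice were females aged 27 weeks on a mixed CD-1;129P2 background. Controls were Esr1fl/fl, that is, homozygous for a floxed gene of oestrogen receptor alpha, and mutants (Esr1Nkx2-1Cre) carried the floxed gene together with a Cre recombinase driven by Nkx2-1, so that the receptor is lost in the part of the hypothalamus with a history of Nkx2-1 expression and not in a single neuron type. Mice of both genotypes received chow or a high-fat diet (HFD) for 17 weeks, the chow being a standard breeder diet, which gave 4 groups of 4 libraries, Control_Chow, Mutant_Chow, Control_HFD and Mutant_HFD. Mutant females have high bone mass that is lost on HFD, and the study searched for a circulating factor behind it. Liver was profiled as a common source of secreted proteins, and the study reported no viable candidate from it. The liver is not the tissue in which Esr1 was deleted, so its liver values, 6.14 to 22.9 over all libraries, do not check the genotype labels.

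CYP3A enzymes sit in the endoplasmic reticulum of hepatocytes and oxidise drugs, steroid hormones and bile acids with electrons from P450 reductase (Por). Cyp3a11 is the main inducible form in adult mouse liver and a classical target of the pregnane X receptor (PXR, Nr1i2). Cyp3a41a, Cyp3a41b and Cyp3a44 are known as forms that adult female liver expresses more than male liver, a difference set by the sex-specific pattern of pituitary growth hormone, and Cyp3a16 was first described in fetal liver. Cyp3a25 and Cyp3a13 are expressed in liver and intestine.

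All 8 genes lie on chromosome 5 (GRCm38). The cluster from 145436309 to 146113287 holds 7 of them within 677 kb, in the order Cyp3a16, Cyp3a41b, Cyp3a41a, Cyp3a44, Cyp3a11, Cyp3a25 and Cyp3a59. Cyp3a59 is transcribed from the plus strand and the others from the minus strand. Cyp3a13 lies apart at 137892932 to 137921619. The transcripts are close copies. Over their aligned bases, Cyp3a41a and Cyp3a41b were 99.9% identical with 2 mismatches in 2060 bases, Cyp3a25 and Cyp3a59 were 97.0% identical, and Cyp3a11 was 91.7% to 94.5% identical to Cyp3a16, Cyp3a41a, Cyp3a41b and Cyp3a44. Of the 31-base words in each transcript, 0.148% were found in no other gene for Cyp3a41a and 4.13% for Cyp3a41b, against 51.1% to 72.7% for Cyp3a16, Cyp3a11, Cyp3a25, Cyp3a44 and Cyp3a59 and 99.7% for Cyp3a13. Values of Cyp3a41a and Cyp3a41b therefore rest on how reads were divided between near-identical genes, and their sum is given beside them.

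The promoters set Cyp3a11 apart from Cyp3a16, Cyp3a41a, Cyp3a41b and Cyp3a44, which the transcripts do not. In transcript, Cyp3a11 was 93.5% to 94.5% identical to Cyp3a41a, Cyp3a41b and Cyp3a44, and Cyp3a16 was 92.2% to 92.4% identical to them. RefSeq windows of 250 bases before the start (GRCm38.p6) were found for all 8 members. Their identity was 93.9% to 99.6% among Cyp3a16, Cyp3a41a, Cyp3a41b and Cyp3a44, 81.3% to 83.7% between these 4 and Cyp3a11, and 95.6% between Cyp3a25 and Cyp3a59. Cyp3a25 matched Cyp3a11 at 55.3%. The letters TGTTTAC, the core of the motif bound by FOXA factors, occurred on either strand in 5 of the 8 windows, against 3.17% of all 32851 promoter windows of this length, and these 5 are close copies of each other. The letters AGGTCA, the hexamer of nuclear receptor sites, occurred in Cyp3a11, Cyp3a44, Cyp3a25 and Cyp3a59, with 2 copies in each of the last pair, against 14.0% of all windows. The letters TTCNNNGAA, the motif of STAT5, which relays growth hormone signals, were in none of the 8 windows, against 7.02% of all windows. TGAACT, another such hexamer, occurred in Cyp3a11, Cyp3a41a and Cyp3a41b (11.8% of all windows), and TATAAA in the 5 windows with TGTTTAC (12.4%). TTGCNNCAA (1.74%) and an HNF1-like palindrome (0.00913%) had no match in the 8. These motifs do not overlap in the printed stretches. A match is a run of letters and not evidence of binding. The first 120 bases of each window, from base -250 to base -131, are shown for the members whose values differed most between groups and for the Cyp3a25 pair, and the Cyp3a41b stretch has the same letters as that of Cyp3a41a. Capitals mark TGTTTAC in the first 4 stretches and AGGTCA or its reverse complement in the last pair. Other matches are left in lower case.
Cyp3a16: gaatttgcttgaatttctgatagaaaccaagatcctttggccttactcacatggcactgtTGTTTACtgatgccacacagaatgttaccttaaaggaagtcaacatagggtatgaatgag
Cyp3a41a: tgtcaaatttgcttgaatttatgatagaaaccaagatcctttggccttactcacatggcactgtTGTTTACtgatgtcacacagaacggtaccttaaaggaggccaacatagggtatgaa
Cyp3a44: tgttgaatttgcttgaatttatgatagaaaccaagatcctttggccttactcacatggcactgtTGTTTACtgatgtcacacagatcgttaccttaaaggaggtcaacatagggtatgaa
Cyp3a11: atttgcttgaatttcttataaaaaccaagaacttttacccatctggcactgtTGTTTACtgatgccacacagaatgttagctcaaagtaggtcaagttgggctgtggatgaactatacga
Cyp3a25: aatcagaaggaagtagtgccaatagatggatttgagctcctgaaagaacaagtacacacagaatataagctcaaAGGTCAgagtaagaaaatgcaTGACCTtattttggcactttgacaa
Cyp3a59: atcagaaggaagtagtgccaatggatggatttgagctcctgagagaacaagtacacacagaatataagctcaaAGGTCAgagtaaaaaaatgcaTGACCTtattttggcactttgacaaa
Cyp3a16 lies at chr5:145469854-145469973, Cyp3a41a at chr5:145720267-145720386, Cyp3a44 at chr5:145806005-145806124, Cyp3a11 at chr5:145879985-145880104 and Cyp3a25 at chr5:146009749-146009868, all on the minus strand, and Cyp3a59 at chr5:146079008-146079127 on the plus strand.

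Values are on the TPM scale, in which each gene's reads are divided by transcript length and scaled to the library, and were adjusted between libraries by size factors, so that levels can be set beside each other between genes. Their sequencing depth is unknown. The library titles carry numbers that fall into a lower- and a higher-numbered series within each diet, and the labels do not say what they stand for. On HFD the lower-numbered series held Control_HFD replicates 1 to 3 with Mutant_HFD replicate 1, and the higher-numbered series held Mutant_HFD replicates 2 to 4 with Control_HFD replicate 4. Genotype and series therefore overlap strongly on HFD. Mutant_HFD replicate 1 stands apart from the other mutants on HFD in much of what follows and resembles the Control_HFD livers for several members. No liver value checks its genotype, so whether its label is right could not be tested, and every Mutant_HFD mean includes it unless stated. Comparisons that use it are also given without it where the values differ. It is singled out by values of the genes compared here, so p-values without it are not an independent test. A second library to keep in view is Mutant_Chow replicate 2, in which 13 acute-phase genes summed to 108754, against 5458 to 21562 in the other 15 libraries. The hepatocyte markers were abundant in every library, with a sum of 83085 to 130773. Of 8 small intestine markers, 6 were not analysed here, including Vil1, Lct and Sis, and the remaining pair, Fabp2 and Apoa4, is also expressed by hepatocytes. In bulk liver, fewer cells of a type and less RNA per cell cannot be told apart.

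Over all libraries the family summed to 1400 to 4601, or 0.13% to 0.434% of the column total. In Control_Chow, Cyp3a25 had a mean of 813 ± 89.6 (SD, n = 4), Cyp3a11 776 ± 475 and Cyp3a41a 695 ± 239.8, and these 3 leading forms did not differ beyond their spread. They were followed by Cyp3a16 (122 ± 29.6), Cyp3a13 (81.0 ± 20.3), Cyp3a44 (39.7 ± 11.2), Cyp3a41b (27.9 ± 15.8) and Cyp3a59 (10.6 ± 20.4), of which Cyp3a44 and Cyp3a41b were within each other's spread. In Mutant_Chow, Cyp3a41a led at 1511 ± 679, followed by Cyp3a25 at 852 ± 294 and Cyp3a16 at 274 ± 79.8, and Cyp3a11 stood at 158 ± 119 beside Cyp3a41b (178 ± 172), Cyp3a44 (169 ± 181) and Cyp3a13 (117 ± 40.3). In Control_HFD, Cyp3a25 (742 ± 130.4) and Cyp3a11 (457 ± 51.2) led, ahead of Cyp3a41a (290.1 ± 118), Cyp3a13 (91.4 ± 6.24) and Cyp3a16 (43.9 ± 17.9), with Cyp3a44 (10.4 ± 9.68), Cyp3a41b (5.10 ± 3.53) and Cyp3a59 (0.164 ± 0.079) last. In Mutant_HFD, Cyp3a41a (1174 ± 698) and Cyp3a25 (677 ± 120.4) led again, and Cyp3a16 (299.8 ± 188), Cyp3a11 (178 ± 171), Cyp3a44 (128 ± 144), Cyp3a41b (112 ± 119.9) and Cyp3a13 (78.0 ± 14.5) had spreads that overlapped their neighbours in this order. With Mutant_HFD replicate 1 left out, the means of 3 were 1494 ± 343 for Cyp3a41a, 389 ± 70.0 for Cyp3a16, 169 ± 144 for Cyp3a44, 149 ± 117 for Cyp3a41b and 114 ± 137 for Cyp3a11.

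**Figure D1:**
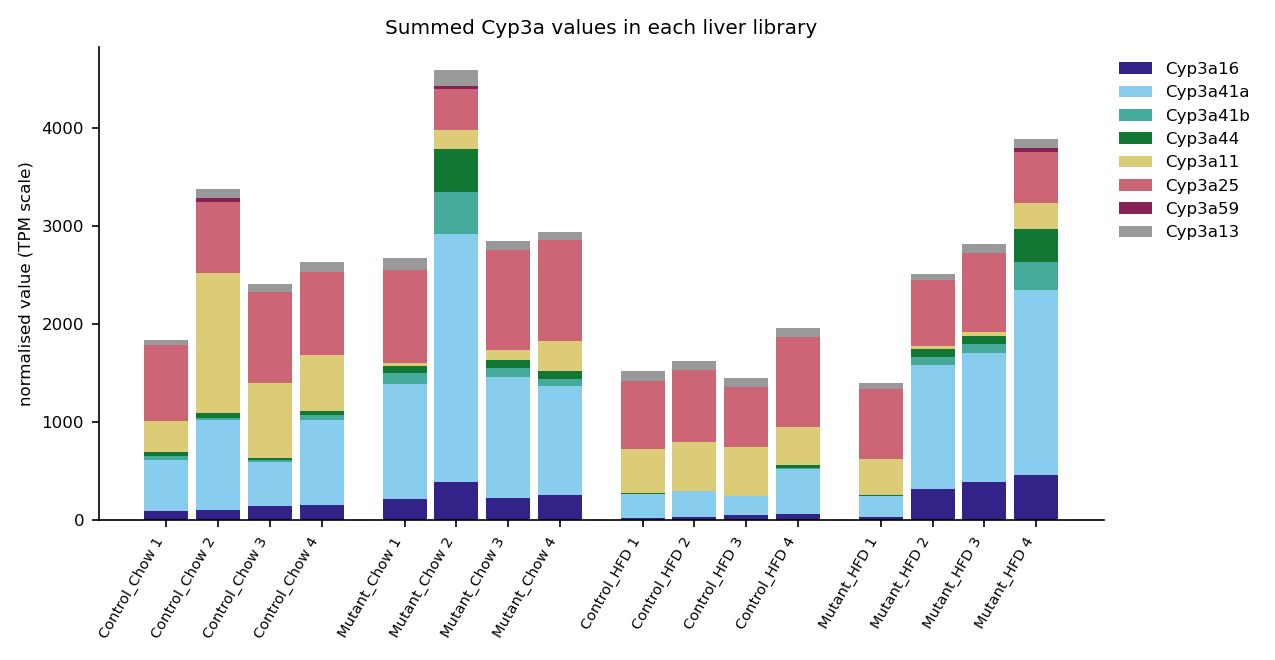
Stacked bars show the summed value of the 8 Cyp3a genes in each of the 16 libraries (TPM scale, linear axis from 0). Cyp3a11 makes up 17.6% to 42.4% of the sum in Control_Chow and 1.40% to 10.6% in Mutant_Chow, and Mutant_HFD replicate 1 has the make-up of the Control_HFD bars.

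The question of the genotype comparison is whether loss of the receptor in the hypothalamus goes with a change in the liver. On chow, Cyp3a11 was lower in mutants and 4 of its cluster neighbours were higher, in livers that did not overlap between genotypes, but none of these differences passed the adjusted threshold. Cyp3a11 was 323.8, 1434, 763 and 581 in the 4 Control_Chow libraries and 37.5, 189, 96.5 and 310.5 in the 4 Mutant_Chow libraries. Every mutant value lay below every control value, although the highest mutant and the lowest control were close. The mutant mean was 0.204 times the control mean, and the difference in log2(value + 1) was -2.47 with a standard error of 0.76 (limma, unadjusted p = 0.00533, adjusted p = 0.67 over all genes tested).

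Cyp3a16, Cyp3a41a, Cyp3a41b and Cyp3a44 lay the other way on chow. Cyp3a16 was 92.2, 102, 143 and 152 in Control_Chow and 217, 391, 231.9 and 255 in Mutant_Chow. Cyp3a41a was 525, 925, 453 and 875 in Control_Chow and 1169, 2528, 1226 and 1121 in Mutant_Chow. For both genes all mutant livers were above all control livers, and Mutant_Chow replicate 2 was the highest. Cyp3a41b was 37.2, 12.5, 16.7 and 45.1 in Control_Chow and 112, 434, 94.0 and 71.2 in Mutant_Chow. Cyp3a44 was 38.5, 54.2, 26.9 and 39.3 in Control_Chow and 74.1, 441, 85.0 and 76.0 in Mutant_Chow. Neither gene overlapped between the groups, and replicate 2 again held the top value by a wide margin. Differences in log2(value + 1) were 1.15 ± 0.62 (SE) for Cyp3a16, 1.10 ± 0.53 for Cyp3a41a, 2.41 ± 0.95 for Cyp3a41b and 1.62 ± 0.94 for Cyp3a44, and without Mutant_Chow replicate 2 they were 0.96, 0.82, 1.85 and 1.00. The sum of Cyp3a41a and Cyp3a41b, which does not depend on the division of reads within the pair, averaged 723 ± 241 in Control_Chow and 1689 ± 850.4 in Mutant_Chow. The 4 genes together summed to 640 to 1111 in Control_Chow and to 1523 to 3794 in Mutant_Chow.

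No member passed the adjusted threshold of 0.05 on chow in the limma test, in which 0.0236% of all genes passed. The unadjusted p was under 0.05 for 3 of the 7 tested members (Cyp3a11 lower, Cyp3a41b and Cyp3a13 higher), against 6.08% of all genes. Without Mutant_Chow replicate 2 it was so for 1 of the 7, Cyp3a11, which was lower, as 1.21% of all genes were. Groups did not overlap with the mutants higher for 4 of the 7, against 1.95% of all genes, and with the mutants lower for 1, against 1.09%. Cyp3a41a and Cyp3a41b are nearly identical in sequence, so here and in later counts of members they are not separate measurements. In a fit with this pair summed, 2 of 6 members were under 0.05 unadjusted on chow and none passed after adjustment. All 7 tested members had a value of at least 1.70 in every library, so none passed the filter through a single group. Their median log2 difference was 1.10, beside 0.020 over all genes tested. Cyp3a59 reached a value of 1 in 3 libraries and was not tested.

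**Figure D2:**
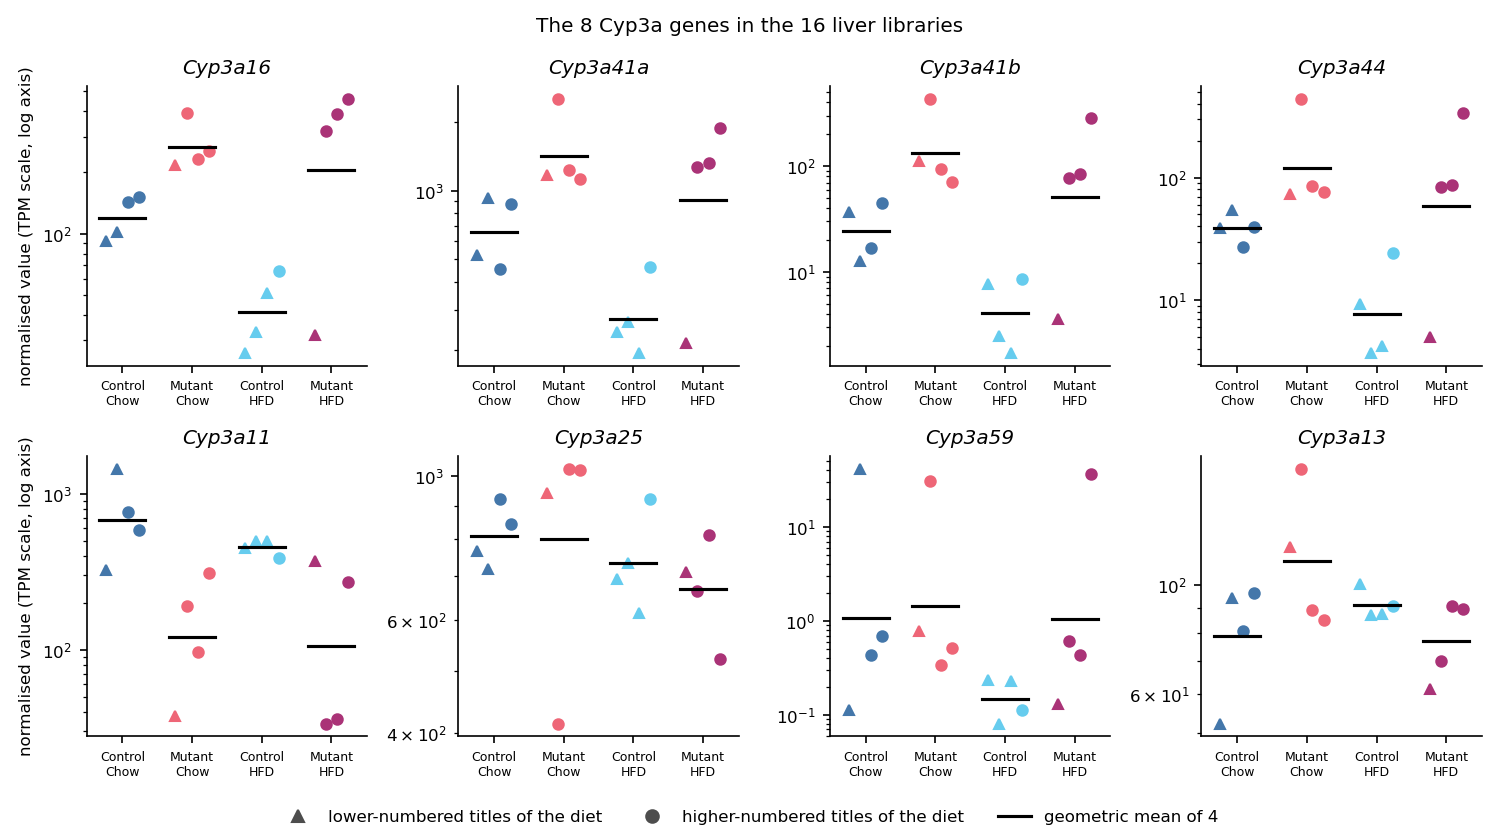
Each panel plots 1 Cyp3a gene in the 16 libraries by group (TPM scale, log axis). Triangles are the lower-numbered and circles the higher-numbered titles of each diet, and the bar is the geometric mean of 4. In Cyp3a16, Cyp3a41a, Cyp3a41b and Cyp3a44 the single Mutant_HFD triangle lies with the Control_HFD triangles, and the 3 circles lie far above them.

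On HFD the same genes lay the same way in 3 of 4 mutants. Cyp3a16 was 26.0, 32.9, 51.1 and 65.6 in Control_HFD and 31.7, 320.4, 387 and 460.4 in Mutant_HFD. Cyp3a41a was 239.8, 265, 194 and 461 in Control_HFD and 215, 1269, 1324 and 1889 in Mutant_HFD. In both genes Mutant_HFD replicate 1 was within the control range, and the other 3 mutants were above every control. Cyp3a41b was 7.63, 2.46, 1.70 and 8.62 in Control_HFD and 3.59, 77.5, 84.9 and 284 in Mutant_HFD. Cyp3a44 was 9.33, 3.69, 4.24 and 24.4 in Control_HFD and 4.95, 83.2, 87.6 and 336 in Mutant_HFD. Replicate 1 again sat among the controls, so the groups overlapped through 1 library. The sum of Cyp3a41a and Cyp3a41b averaged 295 ± 120 (SD) in Control_HFD and 1287 ± 805 in Mutant_HFD, with 219 in Mutant_HFD replicate 1. Cyp3a11 was 448, 498, 495 and 389 in Control_HFD and 372, 33.7, 36.2 and 272 in Mutant_HFD. Its groups did not overlap, but Mutant_HFD replicate 1 missed the lowest control by little, and replicates 2 and 3 were over 10 times lower than any control.

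With all libraries, the HFD differences in log2(value + 1) were 2.30 ± 0.62 (SE) for Cyp3a16, 1.72 ± 0.53 for Cyp3a41a, 3.37 ± 0.95 for Cyp3a41b, 2.79 ± 0.94 for Cyp3a44 and -2.09 ± 0.76 for Cyp3a11, with unadjusted limma p-values of 0.00189, 0.00538, 0.00296, 0.00904 and 0.0147. None passed after adjustment (adjusted p = 0.52 to 0.55), where 0.0157% of all genes passed. All 5 had an unadjusted p under 0.05, as did 8.6% of all genes. No member stood wholly above the controls (1.39% of all genes did), and Cyp3a11 stood wholly below them (1.31% of all genes). Without Mutant_HFD replicate 1, Cyp3a16 (3.19, adjusted p = 6.06e-05), Cyp3a41a (2.41, adjusted p = 0.00319), Cyp3a41b (4.56, adjusted p = 0.00374) and Cyp3a44 (3.92, adjusted p = 0.0126) passed the threshold, and Cyp3a11 (-2.69, adjusted p = 0.087) did not. In that fit 1.11% of all genes passed (141 genes). The library left out was singled out by its values for these same genes, so these p-values are not an independent test. All mutants left are in the higher-numbered series, and Control_HFD replicates 1 to 3 are in the lower-numbered one. The median log2 difference of the 7 members with all libraries was 1.72, beside 0.016 over all genes. With the title series as a term, the differences shrank to 1.19, 0.78, 1.89, 1.16 and -1.42, and none passed.

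**Figure D3:**
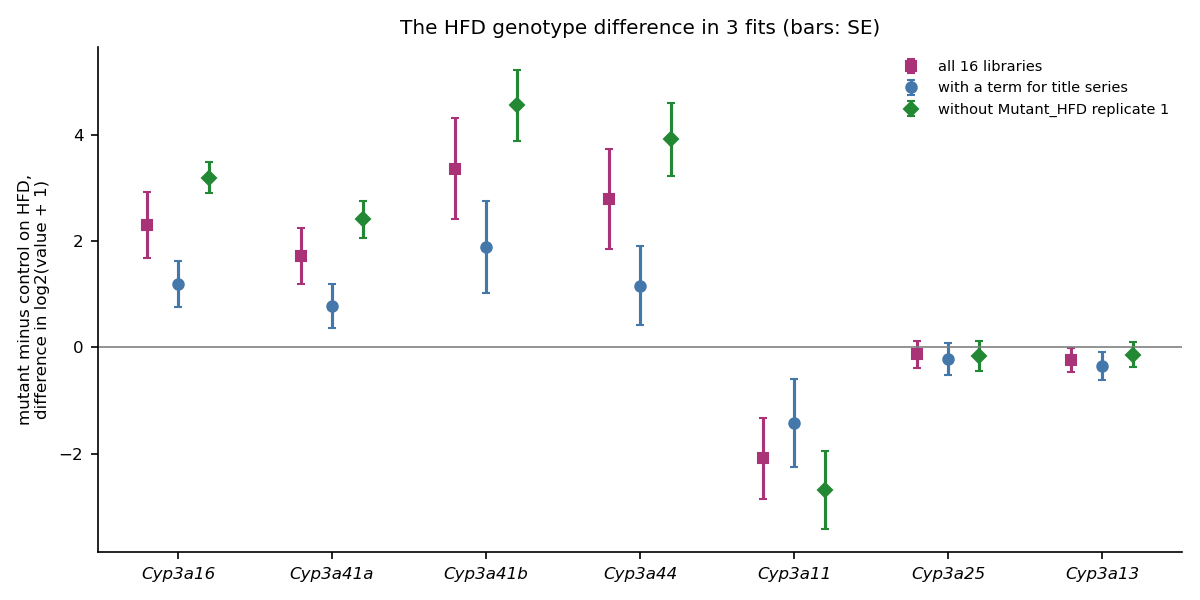
Points are the mutant minus control difference on HFD in log2(value + 1) for the 7 tested members, with standard errors, in the fit of all 16 libraries, with a term for the title series, and without Mutant_HFD replicate 1. The differences of Cyp3a16, Cyp3a41a, Cyp3a41b and Cyp3a44 are largest without that library and smallest with the series term.

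The series itself was compared within HFD with genotype held in the fit, higher-numbered minus lower-numbered. It was larger than the spread for Cyp3a16 (2.22 ± 0.44 on the log2 scale, SE, limma adjusted p = 0.00321), Cyp3a41a (1.88 ± 0.41, adjusted p = 0.00574), Cyp3a44 (3.26 ± 0.75, adjusted p = 0.0073) and Cyp3a41b (2.96 ± 0.87, adjusted p = 0.025). These 4 of 7 tested members passed, against 25.2% of all genes, and the same 4 were the members with an unadjusted p under 0.05, against 37.8% of all genes. Cyp3a11 lay the other way (-1.35 ± 0.83, adjusted p = 0.26) and did not pass. Leaving out any other HFD library kept 4 members past the threshold. Without Mutant_HFD replicate 1, the differences were 0.88, 0.99, 2.01 and 1.15 for Cyp3a16, Cyp3a41a, Cyp3a44 and Cyp3a41b, and none passed, where 14.7% of all genes passed (1862 genes). Within the higher-numbered series alone, the single control had values of 65.6, 461, 8.62 and 24.4 for Cyp3a16, Cyp3a41a, Cyp3a41b and Cyp3a44, and the lowest of the 3 mutants had 320.4, 1269, 77.5 and 83.2. Within the lower-numbered series, the single mutant had 31.7, 215, 3.59 and 4.95, each inside the range of its 3 controls for all 4 genes. The genotypes thus lay apart in the higher-numbered series and together in the lower-numbered one, each with a single library on one side. What the series stands for was not tested.

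Averaged over both diets, the genotype difference in log2(value + 1) was -2.28 ± 0.54 (SE) for Cyp3a11, 1.73 ± 0.44 for Cyp3a16, 1.41 ± 0.38 for Cyp3a41a, 2.89 ± 0.68 for Cyp3a41b and 2.21 ± 0.66 for Cyp3a44. Unadjusted limma p-values were 0.000683, 0.00119, 0.00187, 0.000628 and 0.00438. None passed after adjustment (adjusted p = 0.18 to 0.35), where 0.063% of all genes passed, and these 5 members were under 0.05 before it, against 8.98% of all genes. Without Mutant_HFD replicate 1, all 5 passed, with adjusted p-values of 4.46e-05 for Cyp3a16, 0.00114 for Cyp3a41b, 0.00144 for Cyp3a41a, 0.00876 for Cyp3a44 and 0.0237 for Cyp3a11, in a fit where 0.948% of all genes passed (120 genes). Here too the library left out was singled out by its values for these genes. With the title series as a term, none passed.

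HFD against chow was compared within each genotype. No title series holds both diets, so diet and series cannot be told apart here. Of the controls on HFD, 3 belong to the lower-numbered series, and the 1 in the higher-numbered series had the highest value of the group for each of the 4 genes below. In controls Cyp3a16, Cyp3a41a, Cyp3a41b and Cyp3a44 were lower on HFD. The Control_HFD mean was 0.359 times the Control_Chow mean for Cyp3a16, 0.418 times for Cyp3a41a, 0.183 times for Cyp3a41b and 0.263 times for Cyp3a44. Groups did not overlap for Cyp3a16, Cyp3a41b and Cyp3a44, which is 3 of the 7 tested members against 2.98% of all genes, and for Cyp3a41a the highest HFD value (461) exceeded the lowest chow value (453). No tested member was wholly higher on HFD, as 3.38% of all genes were. Log2 differences were -1.51 ± 0.62 (SE), -1.27 ± 0.53, -2.27 ± 0.95 and -2.14 ± 0.94 in the same order, with unadjusted limma p-values of 0.0262, 0.0307, 0.0307 and 0.0367. These 4 members were under 0.05 before adjustment, against 12.9% of all genes, and after it no member and no other gene passed (0% of all genes, adjusted p = 0.32 to 0.35 for the 4). Cyp3a11 had a log2 difference of -0.56 ± 0.76. With library weights, Cyp3a16, Cyp3a41a, Cyp3a41b and Cyp3a44 passed (adjusted p = 0.0126 to 0.0201), in a fit where 2264 genes passed. Those weights were lowest for Control_HFD replicate 4 (0.228), the control on HFD in the higher-numbered series.

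In mutants the diet groups of these 4 genes overlapped, with log2 differences of -0.36 ± 0.62 (SE) for Cyp3a16, -0.64 ± 0.53 for Cyp3a41a, -1.31 ± 0.95 for Cyp3a41b and -0.97 ± 0.94 for Cyp3a44. Without Mutant_HFD replicate 1, Cyp3a16 turned to 0.53, Cyp3a41a to 0.050 and Cyp3a44 to 0.16, and Cyp3a41b was -0.12. No member passed (0% of all genes did), 1 member, Cyp3a13, had an unadjusted limma p under 0.05 against 6.86% of all genes, and no member was free of overlap in either direction, against 1.67% of all genes higher and 1.86% lower. The genotype by diet interaction tests whether the genotype difference depends on diet. It passed for no member and for no gene (0%), and only Cyp3a13 had an unadjusted limma p under 0.05, against 4.21% of all genes. For Cyp3a11 the interaction was 0.37 ± 1.08 (SE). Among Cyp3a16, Cyp3a41a, Cyp3a41b and Cyp3a44 it ran from 0.63 ± 0.75 for Cyp3a41a to 1.17 ± 1.32 for Cyp3a44. Leaving out Mutant_HFD replicate 1, these values were 2.04 ± 0.40 for Cyp3a16, 1.32 ± 0.47 for Cyp3a41a, 2.15 ± 0.91 for Cyp3a41b and 2.30 ± 0.93 for Cyp3a44, with unadjusted limma p-values of 0.000142, 0.0141, 0.0329 and 0.0269. These 4 of 7 members were then under 0.05, against 10.2% of all genes, and none passed after adjustment (adjusted p = 0.30 to 0.47). With the title series as a term, the interaction was -0.30 for Cyp3a41a, -0.44 for Cyp3a41b and -0.43 for Cyp3a44.

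**Figure D4:**
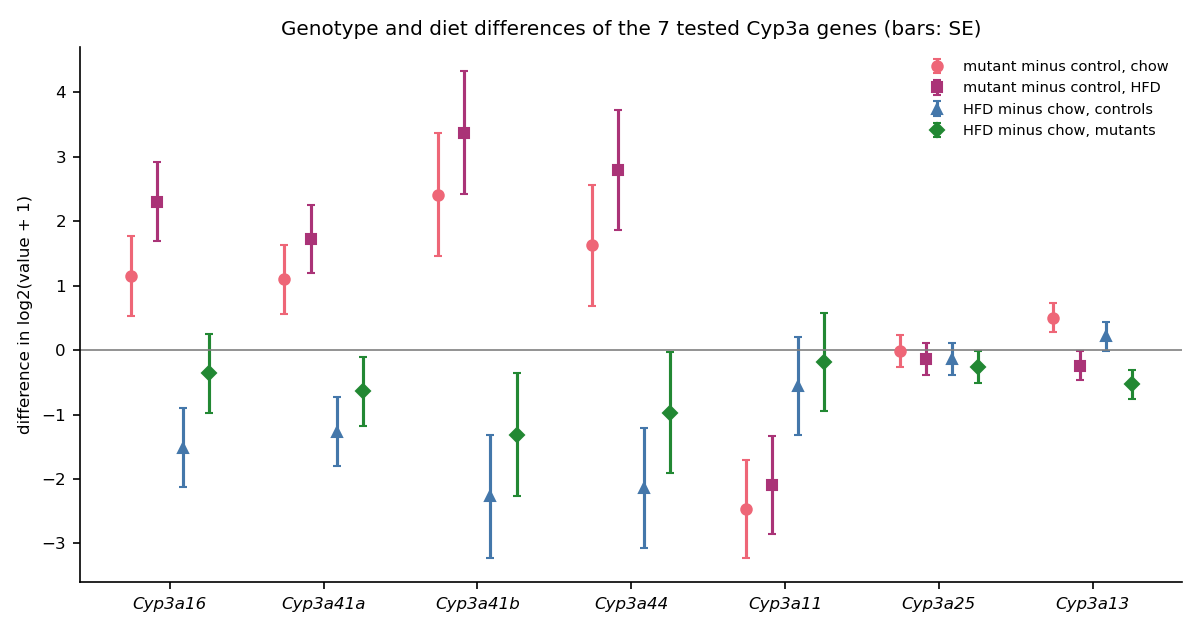
Points are differences in log2(value + 1) with standard errors for the 7 tested members in the 4 comparisons of groups. The genotype differences of Cyp3a16, Cyp3a41a, Cyp3a41b and Cyp3a44 are above 0 and those of Cyp3a11 below it on both diets, and Cyp3a25 and Cyp3a13 have the smallest differences between genotypes.

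Cyp3a25 and Cyp3a13 had the narrowest range of the members, with a ratio of highest to lowest library of 2.48 and 3.30. Cyp3a25 had 768, 718, 923 and 843 in Control_Chow, 944, 414, 1026 and 1023 in Mutant_Chow, 694, 735, 615 and 922 in Control_HFD and 711, 664, 812 and 522 in Mutant_HFD. All groups overlapped, and its log2 differences ran from -0.26 to -0.016 in the 4 comparisons of groups (limma adjusted p = 0.83 to 1.0). Without Mutant_Chow replicate 2, its lowest library, they were 0.30 for genotype on chow and -0.58 ± 0.16 (SE) for diet in mutants (unadjusted p = 0.00316, adjusted p = 0.65). Cyp3a13 was 52.3, 94.3, 80.8 and 96.4 in Control_Chow and 119.8, 172, 89.0 and 85.1 in Mutant_Chow, with the top value in Mutant_Chow replicate 2. It was 100.5, 87.2, 87.5 and 90.7 in Control_HFD and 61.5, 70.1, 90.8 and 89.5 in Mutant_HFD. Its groups overlapped throughout, with log2 differences of 0.50 ± 0.22 (SE, unadjusted p = 0.0401) for genotype on chow, -0.24 ± 0.22 on HFD, -0.53 ± 0.22 for diet in mutants (unadjusted p = 0.03) and -0.74 ± 0.32 for the interaction (unadjusted p = 0.0321, adjusted p = 0.90). Within groups the SD on the log2 scale was 0.34 for Cyp3a13 and 0.37 for Cyp3a25, larger than in 70.9% and 76.8% of the genes tested, whose median was 0.26. For Cyp3a41b, Cyp3a44, Cyp3a11, Cyp3a16 and Cyp3a41a it was 1.52, 1.49, 1.21, 0.98 and 0.84, larger than in 97.6% to 99.5% of the genes tested.

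Cyp3a59 was either near 0 or clearly present. It was 41.2 in Control_Chow replicate 2, 30.5 in Mutant_Chow replicate 2 and 36.5 in Mutant_HFD replicate 4, and 0.0808 to 0.776 in the other 13 libraries. The 3 libraries belong to 3 different groups and to both series of the chow libraries. In each of their groups, the same library had the lowest value of Cyp3a25, whose transcript is 97.0% identical to that of Cyp3a59 (718, 414 and 522). In all 3 libraries the gap of Cyp3a25 to the next library of the group was larger than the Cyp3a59 value itself. Mutant_Chow replicate 2 and Mutant_HFD replicate 4 also held the highest Cyp3a44 (441 and 336) and Cyp3a41b (434 and 284) of all libraries, and Control_Chow replicate 2 had the highest Cyp3a44 (54.2), Cyp3a41a (925) and Cyp3a11 (1434) of its group and the lowest Cyp3a41b (12.5). All 3 were thus the highest of their group for Cyp3a44. Whether the division of reads between Cyp3a25 and Cyp3a59 takes part in this pattern was not tested.

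**Figure D5:**
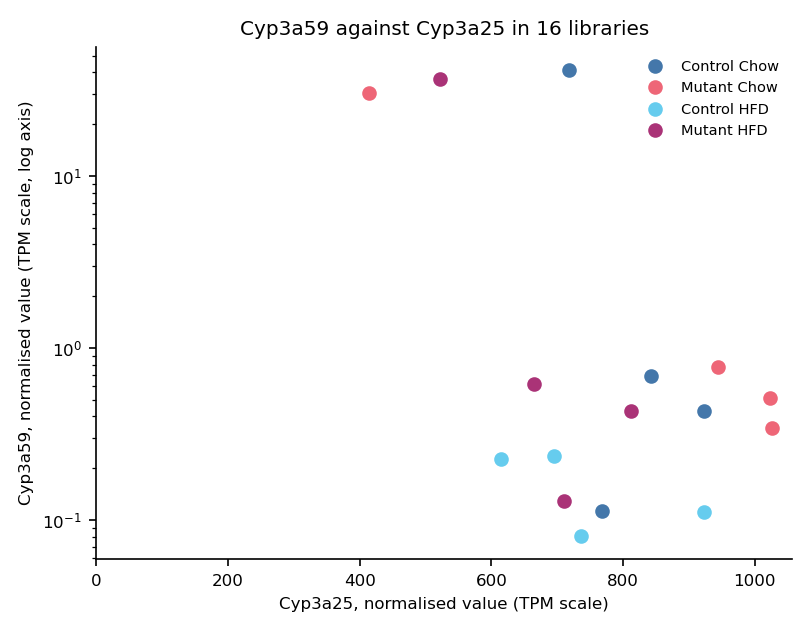
Each point is 1 library, with Cyp3a25 on the linear x axis and Cyp3a59 on the log y axis (TPM scale), coloured by group. The 3 libraries with Cyp3a59 above 30 stand apart from 13 libraries below 1. Those of Mutant_Chow and Mutant_HFD have the lowest Cyp3a25 of all, and that of Control_Chow lies mid-range at 718.

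Across the 16 libraries, which share the group differences above, log2 values of Cyp3a16, Cyp3a41a, Cyp3a41b and Cyp3a44 varied together, with Pearson's r of 0.92 to 0.97 between the 6 pairs. After removal of group means r was 0.81 to 0.94, pooled over the groups, in values whose reads are partly shared. The pool includes Mutant_HFD, where replicate 1 was the lowest for each of these genes. Inside single groups r was not computed, and not all groups showed the pattern. In Control_Chow, replicate 2 was highest for Cyp3a44 (54.2) and lowest for Cyp3a41b (12.5). Cyp3a11 ran against these 4 genes, with r of -0.56 to -0.43 over all libraries. After removal of group means it was -0.34 to -0.13. Cyp3a25 had r of -0.23 to -0.09 with the 4 genes and -0.63 with Cyp3a59.

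Outside the family, the genes most like each member over these 16 libraries differed between the members. For Cyp3a16 they were Prlr (Pearson's r = 0.97), which encodes the prolactin receptor, Car2 (0.96), a carbonic anhydrase, and Lifr (0.95), the receptor of leukaemia inhibitory factor. For Cyp3a41a they were Zfp292 (0.95), Prlr (0.95) and Tmem184c (0.94), for Cyp3a41b Proz (0.94), Tmem184c (0.91) and Slc39a14 (0.91), and for Cyp3a44 Tmem184c, Bicc1 and Wdr37 (0.92, 0.92 and 0.91). Prlr had a mean of 201 in Control_Chow, 317 in Mutant_Chow, 136 in Control_HFD and 315.97 in Mutant_HFD. Cyp3a11 was most like Aldh1a1 (0.84), a retinaldehyde dehydrogenase that also stands in the list of PXR and CAR targets, Fam234b (0.82) and Adamts7 (0.80). Aldh1a1 averaged 726 in Control_Chow, 420.0 in Mutant_Chow, 638 in Control_HFD and 376 in Mutant_HFD. Cyp3a13 was most like Slc35c1, Ckap4 and Pdia5 (0.88, 0.87 and 0.87), Cyp3a25 like Olfr1129, Macc1 and Appl2 (0.87, 0.85 and 0.83), and Cyp3a59 like Pgap2, Tstd2 and Hmgb1 (0.83, 0.82 and 0.81), where the last values rest on the 3 libraries with Cyp3a59.

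The receptors that induce Cyp3a genes did not pass in any comparison of groups with all libraries. Nr1i2 (PXR) had a log2 difference of -0.089 ± 0.13 (SE) between genotypes on chow and -0.30 ± 0.13 on HFD (limma adjusted p = 0.57). Nr1i3, the constitutive androstane receptor (CAR), had -0.45 ± 0.26 and 0.030 ± 0.26, Hnf4a, the master factor of hepatocyte expression, had -0.049 ± 0.15 and -0.051 ± 0.15, and Por had -0.013 ± 0.27 and 0.22 ± 0.27. Of 20 tested regulators none passed in any comparison of groups with all libraries, and on HFD 3 were higher and 2 lower at an unadjusted p under 0.05 (4.77% and 3.83% of all genes were), with a median log2 difference of 0.051 beside 0.016 for all genes. Esr1 (1.06 ± 0.34), the growth hormone receptor Ghr (0.54 ± 0.18) and the bile acid responsive repressor Nr0b2 (-1.65 ± 0.58) were among them. The other lower regulator was Nr1i2. When Mutant_HFD replicate 1 was left out, 6 regulators were higher and 3 lower, against 11.2% and 8.92% of all genes. Of these, 3 passed after adjustment, where 1.11% of all genes did. Of the 7 redox partners and haem genes, none was under 0.05 unadjusted in either genotype comparison. On HFD without that library 1 was, on the higher side, as 11.2% of all genes were.

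Known targets of PXR and CAR were not lower as a group in mutants on HFD. Of 17 tested, 3 were higher and 1 lower at an unadjusted p under 0.05, against 4.77% and 3.83% of all genes (median 0.21 on the log2 scale, all genes 0.016). On chow 1 was higher and 2 lower, against 4.23% and 1.85% of all genes (median -0.20, all genes 0.020). Aldh1a1 was lower in mutants on both diets (-0.91 ± 0.32 and -0.83 ± 0.32, SE, adjusted p = 0.76 and 0.56), and its sister gene Aldh1a7 lay the other way (0.72 ± 0.36 and 1.08 ± 0.36). In controls HFD went with lower values of these targets, led by Cyp2c55, Ces2a, Cyp2c29 and Gadd45b. Of the 17, 9 were lower and none higher at an unadjusted p under 0.05, against 6.52% and 6.4% of all genes. The median was -0.60 (all genes -0.0094). None of the 17 passed after adjustment in these comparisons. On HFD without Mutant_HFD replicate 1, 6 were higher and 1 lower in mutants, against 11.2% and 8.92% of all genes. Of the 17, 2 passed, where 1.11% of all genes did.

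Other female-biased liver genes lay largely with Cyp3a41a and Cyp3a44. On chow 1 of 17 was higher and 1 lower in mutants at an unadjusted p under 0.05 (4.23% and 1.85% of all genes were). On HFD 7 were higher and none lower, against 4.77% and 3.83% of all genes. Over both diets, 10 were higher and 2 lower, against 5.58% and 3.4% of all genes (median 0.59 on the log2 scale, all genes 0.023), including Prlr (0.87 ± 0.24, SE), the steroid sulfotransferase Sult2a1 (1.45 ± 0.41) and the steroid hydroxylase Cyp2a4 (1.46 ± 0.42). Cyp2b13, also a female-biased P450, was lower (-2.36 ± 0.63). Cux2, a transcription factor specific to female liver, averaged 34.2 in Control_Chow, 45.4 in Mutant_Chow, 25.4 in Control_HFD and 52.0 in Mutant_HFD (0.86 ± 0.40, limma adjusted p = 0.55). Of 11 tested male-biased genes 2 were lower and none higher, the P450 Cyp2d9 (-2.46 ± 0.49) and the major urinary protein gene Mup7 (-1.48 ± 0.56). None of these passed after adjustment with all libraries. In the fit without Mutant_HFD replicate 1, 7 of the female-biased genes passed over both diets, all higher, and 1 male-biased gene passed, lower. There 0.948% of all genes passed. Between the HFD title series, 8 of the 17 female-biased genes passed, against 25.2% of all genes, all 8 higher in the higher-numbered series. Without Mutant_HFD replicate 1, 1 of the 17 passed higher and 1 passed lower, where 14.7% of all genes passed. Summed values of this list were 9298 to 11255 in Mutant_Chow and 4222 to 6779 in Control_Chow, 1716 to 3301 in Control_HFD, 2370 in Mutant_HFD replicate 1 and 7563 to 9341 in the other Mutant_HFD libraries.

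Acute-phase genes, which liver makes in inflammation, and zonal markers were read beside the family. On chow the acute-phase list had a median log2 difference of 1.42 between genotypes, and all 13 were positive. Of the 13, 4 were higher at an unadjusted p under 0.05, against 4.23% of all genes. Without Mutant_Chow replicate 2 the median was 0.57, with 1 of 13 higher, against 2.12% of all genes. The sums of the list were 15403, 108754, 6125 and 6740 in Mutant_Chow replicates 1 to 4, beside Cyp3a11 values of 37.5, 189, 96.5 and 310.5. In Control_Chow the sums were 5458 to 6952. Whether inflammation takes part in the Cyp3a11 values was not tested. On HFD the list lay lower in mutants (median -0.62, 1 of 13 lower, against 3.83% of all genes). Of 10 pericentral genes, 6 were higher in mutants on HFD at an unadjusted p under 0.05, led by Glul (0.66 ± 0.20, SE), against 4.77% of all genes. Of the 10 differences 8 were positive, and Cyp2e1 lay the other way, with a mean of 4536 in Mutant_HFD and 5717 in Control_HFD. Of 10 periportal genes 2 were lower on HFD, led by Cyp2f2 (-1.38 ± 0.49), against 3.83%. On chow no pericentral or periportal gene was under 0.05 unadjusted. None passed after adjustment with all libraries. Without Mutant_HFD replicate 1, 7 pericentral genes were higher and 5 periportal genes lower, against 11.2% and 8.92% of all genes, 2 acute-phase genes were lower, and of these lists 1 periportal gene passed. The 5 Kupffer cell markers summed to 188 to 541 in Mutant_Chow and 109 to 363 in Control_Chow, and 3 of 5 adipose and 4 of 5 exocrine pancreas markers were not analysed here. The part of these cells in the Cyp3a values was not tested.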

How the data were processed

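RNA of 16 livers was sequenced, 1 library per mouse. Reads had been quantified with kallisto in gene mode on the mm10 transcriptome and analysed with sleuth, in versions not given in the sources used here. The unit was not stated. Each deposited value was read as a TPM-scale signal with size factors applied, because values are fractional and columns total 905897 to 1119703. Depth is unknown, so precision is the spread between mice.

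Differences were fitted with limma 3.58.1 (R 4.3.3) on log2(value + 1), with 4 group means over all 16 libraries and a variance trend. The 12704 genes with a value of 1 in 4 libraries entered the fit, and p-values were adjusted over them by Benjamini-Hochberg, threshold 0.05. Adding 1 understates changes of low genes. The fit was tested on simulated data, drawn independently for each gene and library, with no outlying library and no title series. That test does not cover how the fit behaves with either. Genotype and treatment labels set the groups. Replicates were numbered in sample order, since no label numbers them, and pair nothing. The title series was a term in its own comparison and in an alternative. Other alternatives were other scalings, filters and pseudocount, library weights, the summed Cyp3a41 pair, the compared groups alone and each library left out.

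Named were all members, at most 4 genes per list and comparison by smallest unadjusted p, Nr1i2, Nr1i3, Por, Hnf4a and Cux2, and the 3 genes most correlated with each member. Members and lists were chosen with earlier results of these data known. Positions and transcripts came from GENCODE M21 (GRCm38) and promoters from RefSeq (GRCm38.p6). Identities and motifs were computed with Biopython 1.88, and protein sequences were not used here.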

Additional observations from a re-analysis of the deposited data

Results flagged for a closer look

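Within the 4 libraries of a group, 7 of 32 member and group combinations held a library whose gap to its nearest neighbour filled most of the group's range (Dixon's test at the 95% level, which chance passes in about 1 of 20 groups). Members share reads and vary together, so the combinations are not independent and their count cannot be set against that rate. Mutant_Chow replicate 2 was the outlying library in 4 of them. It was highest for Cyp3a41a (2528), Cyp3a44 (441) and Cyp3a59 (30.5) and lowest for Cyp3a25 (414), and its acute-phase genes summed to 108754, whose part in these values was not tested.

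Mutant_HFD replicate 1 was the outlying low library for Cyp3a16 (31.7), where the other mutants on HFD had 320.4 or more. Cyp3a59 was outlying in Control_Chow replicate 2 (41.2) and Mutant_HFD replicate 4 (36.5), both over 30 where the other libraries of the group were under 1.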

How the results depend on the processing

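No paired analysis was possible because the labels give no replicate numbers. Library weights, which gave Control_HFD replicate 4 (0.228), Mutant_HFD replicate 1 (0.329) and Mutant_Chow replicate 2 (0.354) the least weight, put 5 members past the threshold in the HFD genotype comparison, 4 in the diet comparison of controls and 5 in the genotype comparison over both diets, in fits where 3926, 2264 and 1020 genes passed. Control_HFD replicate 4 and Mutant_HFD replicate 1 are the only HFD libraries that lie in the title series of the other genotype. With little weight on them, genotype and title series on HFD can hardly be told apart. Leaving out each library gave 0 to 4 members for genotype on HFD, 0 to 5 for genotype over both diets and 0 to 4 for the title series, with the 4, 5 and 0 all without Mutant_HFD replicate 1. Rescaling each library to the same total moved the median of all genes by -0.15 for diet in controls, 0.14 for the interaction and 0.13 for the series, and the genotype medians by less than 0.1.

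The signs that turned were of differences that had not passed. With library weights, Cyp3a25 gave 0.18 for genotype on chow and 0.063 over both diets, diet in mutants gave 0.43 for Cyp3a16, 0.066 for Cyp3a41a, 0.0070 for Cyp3a41b and 0.26 for Cyp3a44, and the interaction of Cyp3a11 gave -0.38. With the title series as a term, the interaction was -0.30 for Cyp3a41a, -0.44 for Cyp3a41b and -0.43 for Cyp3a44. Rescaling to the same total gave an interaction of 0.047 for Cyp3a25. With each library left out, diet in mutants ran from -0.79 to 0.35 for Cyp3a11, -0.74 to 0.53 for Cyp3a16, -0.99 to 0.050 for Cyp3a41a and -1.78 to 0.16 for Cyp3a44. Cyp3a25 ran from -0.14 to 0.30 for genotype on chow, -0.13 to 0.084 over both diets, -0.43 to 0.0018 for the interaction and -0.12 to 0.44 for the series. The interaction of Cyp3a11 ran from -0.23 to 0.92 and the series difference of Cyp3a13 from -0.013 to 0.43. The cause was not tested in any of these. The counts of gene lists and the Mutant_HFD means without a library were added after seeing the data. Depth is unknown and could not be varied.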
